A study of Arabidopsis thaliana with 21 samples.

Results

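The genes described here are 7 Arabidopsis thaliana loci of the nuclear lamina and of the LINC complex, chosen by locus code from the 33602 genes in each count table: CRWN1 (AT1G67230), CRWN2 (AT1G13220), CRWN3 (AT1G68790), CRWN4 (AT5G65770), KAKU4 (AT4G31430), SUN1 (AT5G04990) and SUN2 (AT3G10730). The nuclear lamina is a protein meshwork under the inner nuclear membrane that gives the nucleus its size and shape. Plants have no lamins, and the CRWN proteins, long coiled-coil proteins found only in plants, take their place together with KAKU4, which binds CRWN proteins at the nuclear periphery. LINC complexes span both membranes of the nuclear envelope. SUN proteins sit in the inner membrane and hold KASH proteins of the outer membrane, which connect the nucleus to actin and myosin and position it in the cell. The protophloem sieve element, the first sugar-conducting cell of the root, is known for dismantling its nucleus as it matures, so its developmental series runs from cells with an intact envelope to cells that are about to lose it.

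RNA was sequenced from fluorescent cells sorted from digested roots of 5-day-old seedlings, in 21 libraries of 6 reporter lines, each named here by the promoter of its reporter. All 6 lines carried reporter transgenes and no mutant allele or treatment is named for any of them. The PEAR1 line (n = 4) carried pPEAR1::3xYFP and the PEAR1-DBOX line (n = 2, replicates 3 and 5) carried pPEAR1::DBOX-3xYFP, whose destruction box is a motif that sends a protein to degradation at the close of mitosis. The CVP2-DBOX line (n = 4) carried pCVP2::DBOX-3YFP. The CALS7 line (n = 4; the label spells its promoter pCASL7) and the NAC73 line (n = 4) carried H2B-YFP, a fluorescent histone that marks the nucleus, under their own promoter, with pS32::erRFP. The line labelled NAC57 (n = 3, replicates 1, 2 and 4) carried pNAC57::2GFP with pCALS7::H2B-RFP. PEAR1 and CVP2 are active in young phloem cells, and CALS7, a callose synthase gene of sieve plates, and NAC073 in older sieve elements. Which colour was gated is not stated. Promoter, reporter protein, line and handling differ together here and cannot be told apart. Nothing states that replicates came from separate plantings, so p-values measure the spread between these libraries only.

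Library totals ran from 23513921 to 36198012 counts. Genes with a count were fewest in NAC73 (16916 to 19644) and NAC57 (20416 to 22103) and most in PEAR1 (29449 to 30620). They numbered 23756 to 27560 in CALS7, 25088 to 28134 in CVP2-DBOX, and 22747 and 28322 in PEAR1-DBOX 3 and 5. Summed levels of 14 sieve element and early phloem marker genes were 1650 to 4460 CPM (counts scaled to a common total and by TMM, which sets libraries to a common composition) in the PEAR1, PEAR1-DBOX, CVP2-DBOX and NAC57 lines, 11600 to 15600 in CALS7 and 17400 to 39300 in NAC73. The list includes the reporter genes CALS7 and CVP2, which went opposite ways. The CALS7 gene stood at 3886 ± 566 CPM (SD) in CALS7 and 4204 ± 2210 in NAC73, against 126 ± 22.5 in CVP2-DBOX. The CVP2 gene stood at 270 ± 15.6 and 178 ± 28.1 CPM, against 655 ± 53.4. The summed level of 10 genes of G2 and M phase, which mark dividing cells, had a line median of 302 CPM in PEAR1, 2030 in PEAR1-DBOX, 2850 in CVP2-DBOX, 767 in NAC57, 83.9 in NAC73 and 44.8 in CALS7. Of 4 companion cell markers, AHA3, a proton pump gene, stood at 1140 ± 185 CPM (SD) in CALS7 and 1700 ± 475 in NAC73 against 122 ± 20.4 in PEAR1, while SUC2, the defining sucrose transporter gene, was at 1.87 and 0.788 CPM there. SUC2 was highest in the PEAR1-DBOX line (80.5 ± 2.91 CPM, n = 2) and the PEAR1 line (29.2 ± 2.59), followed by NAC57 (13.6 ± 14.3). In CVP2-DBOX its mean was 0.835 ± 0.795 CPM, between those of CALS7 and NAC73. The NAC057 gene had its lowest mean of the 6 lines, 21.1 ± 9.62 CPM, where the label names its promoter, so directions drawn from the NAC57 label are those of a line that its own gene goes against. On the first principal component NAC73 2 and 3 stood at 352.2 and 371.8 and NAC73 1 and 4 at 159.1 and 140.2. On the second component PEAR1-DBOX 3 stood at -78.5 and PEAR1-DBOX 5 at 76.8. These values were not tested as sources of any difference described below, and in bulk RNA fewer cells of a type and less RNA per cell cannot be told apart.

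CRWN1, CRWN2, CRWN3, SUN1, SUN2 and KAKU4 had counts in every library and passed the filter on low counts. Each of these 6 differed among the 6 lines in edgeR's quasi-likelihood test (adjusted p from 4.84e-07 for CRWN2 to 0.000648 for SUN2), where 74.4% of the 26074 genes tested did. For the neighbours in level named below that belong to none of the 8 comparisons described later, the share of all genes called was 61.5% in NAC73 against PEAR1, 34.7% in NAC57 against PEAR1, 37.3% in NAC57 against NAC73, 51.3% in NAC73, 35.8% in CALS7, 18% in NAC57 and 12% in CVP2-DBOX, the last 4 against PEAR1-DBOX. Their patterns were unlike. On TMM-scaled levels, CRWN1 and SUN1 were highest in the NAC73 line, and CRWN2, CRWN3, SUN2 and KAKU4 were highest in the CVP2-DBOX line. CRWN2 and KAKU4 were lowest in CALS7, CRWN3 in NAC73, SUN2 in PEAR1, and CRWN1 and SUN1 in PEAR1-DBOX. Ranks that involve NAC73 depend on the scaling. As shares of unscaled library totals, neither CRWN1 nor SUN1 counts were highest in NAC73.

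**Figure D1:**
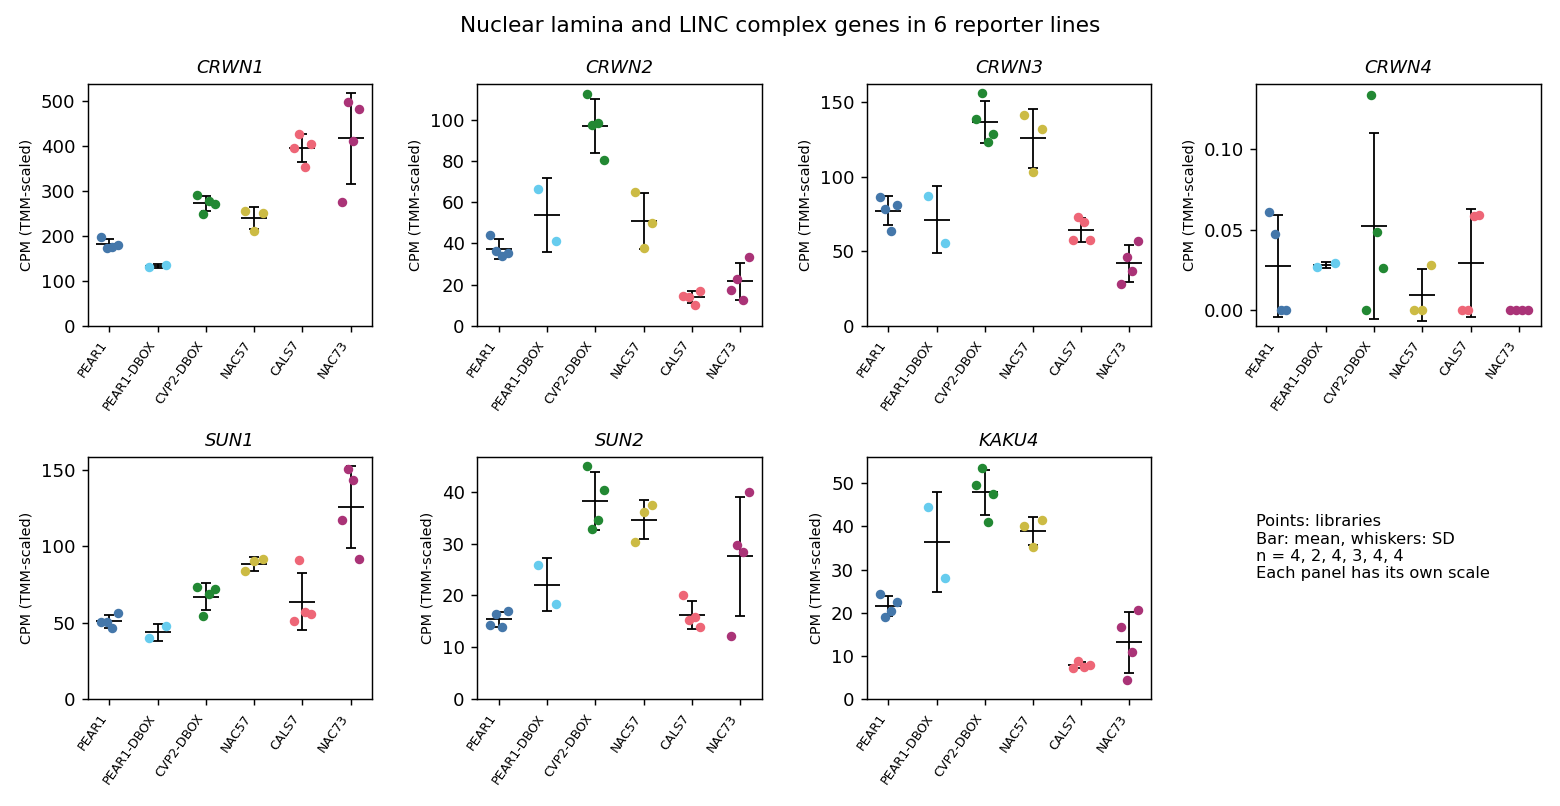
Level of each of the 7 genes (vertical axis, TMM-scaled CPM, a separate scale per panel) in the libraries of 6 reporter lines (horizontal axis), with points for libraries and a bar with whiskers for mean and SD. CRWN1 lies highest in CALS7 and NAC73, where CRWN2 and KAKU4 lie lowest, and the CRWN4 panel spans only 0 to 0.134 CPM.

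CRWN1 encodes the lamina protein whose loss gives small, round nuclei. Its gene lies at chr1:25151211-25156389 on the minus strand (TAIR10.1), with 8 exons and a protein of 1132 residues. Levels were 198, 173, 174 and 178 CPM in the PEAR1 libraries and 129.7 and 136 in PEAR1-DBOX. CVP2-DBOX had 290.1, 249, 278 and 270.2 CPM, and the line labelled NAC57 had 256, 211 and 249. Every CVP2-DBOX library stood above every PEAR1 library, and the NAC57 libraries overlapped with CVP2-DBOX only. CALS7 had 394, 426, 352 and 404 CPM, above all libraries of those 4 lines. NAC73 had 276, 498, 410.5 and 482 CPM, and NAC73 1 alone lay within the range of CVP2-DBOX. In order, the means were 416.5 ± 101 in NAC73, 394 ± 30.9 in CALS7, 272 ± 17.3 in CVP2-DBOX, 239 ± 24.1 in NAC57, 181 ± 11.3 in PEAR1 and 133 ± 4.21 in PEAR1-DBOX (SD). Of neighbours in that order, only CALS7 and CVP2-DBOX differed past the threshold, though NAC57 and PEAR1 were also called with voom (0.39) and with only these 2 lines fitted (0.35).

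CRWN2 is a close relative of CRWN1, and loss of both strongly reduces nuclear size and plant growth. It lies at chr1:4515464-4520306 on the plus strand, with 3 annotated transcripts and a longest protein of 1141 residues. The PEAR1 libraries held 44.1, 36.3, 33.6 and 35.1 CPM and the PEAR1-DBOX libraries 66.3 and 40.9. CVP2-DBOX held 112, 97.1, 98.3 and 80.2 CPM, the 4 highest values of the 21. NAC57 held 64.9, 37.6 and 49.8 CPM. The CALS7 libraries held 14.6, 14.1, 10.3 and 16.8 CPM and those of NAC73 17.2, 22.8, 12.8 and 33.6, all below the lowest PEAR1 value. Neighbours in the order of means (CVP2-DBOX, PEAR1-DBOX, NAC57, PEAR1, NAC73, CALS7) differed only between PEAR1 and NAC73 (log2 -0.79 ± 0.26, SE, adjusted p = 0.0141), which was not called with NAC73 1 and 4 only (-0.56). CVP2-DBOX and PEAR1-DBOX were called with DESeq2 (0.84) and with only these 2 lines fitted (0.87).

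KAKU4, the binding partner of CRWN proteins, followed nearly the same order as CRWN2. It lies at chr4:15248377-15252837 on the plus strand, with 13 or 14 exons. Its levels were 24.2, 19.1, 20.4 and 22.6 CPM in PEAR1, 44.5 and 28.1 in PEAR1-DBOX, and 49.5, 53.5, 41.1 and 47.4 in CVP2-DBOX. The NAC57 libraries held 40.1, 35.2 and 41.4 CPM. CALS7 held 7.30, 8.78, 7.58 and 7.98 CPM, the smallest SD of the 6 lines (0.642 CPM). NAC73 held 16.6, 4.44, 11.03 and 20.7 CPM, so that NAC73 2 was below every CALS7 library and NAC73 1, 3 and 4 were above. The only neighbours that passed were PEAR1 and NAC73 (log2 -0.71 ± 0.30, adjusted p = 0.0478). That call ended without any 1 of the 4 PEAR1 libraries, NAC73 2 or NAC73 3, with values from -0.76 to -0.42, and also with no filter (-0.71), with only these 2 lines fitted (-0.76) and with NAC73 1 and 4 only (-0.21).

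CRWN3 is the remaining CRWN1-type gene, at chr1:25834686-25839541 on the minus strand, with a protein of 1085 residues. It held 86.5, 78.0, 63.2 and 80.8 CPM in PEAR1, 86.9 and 55.2 in PEAR1-DBOX, and 138, 156, 123 and 129 in CVP2-DBOX. NAC57 held 142, 103 and 132 CPM, within or just below the CVP2-DBOX range. CALS7 held 57.2, 73.2, 69.4 and 57.6 CPM, overlapping with PEAR1, and NAC73 held 27.9, 45.9, 36.9 and 56.9, below every CALS7 library. Neighbours in the order of means (CVP2-DBOX, NAC57, PEAR1, PEAR1-DBOX, CALS7, NAC73) differed between NAC57 and PEAR1 (log2 0.70 ± 0.21, adjusted p = 0.0175) and between CALS7 and NAC73, described below. The former call ended with median-of-ratios scaling and DESeq2 (0.40 each), with PEAR1 1 and 3 only (0.74), and without PEAR1 3 (0.62), NAC57 1 (0.61) or NAC57 4 (0.67). Its line means ran from 41.9 to 136.5 CPM.

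SUN1 encodes an inner nuclear membrane protein, at chr5:1471481-1474029 on the minus strand, with 2 exons and 471 residues. It held 50.5, 50.5, 46.8 and 56.8 CPM in PEAR1, 40.0 and 47.8 in PEAR1-DBOX, and 73.3, 54.7, 68.9 and 72.0 in CVP2-DBOX. NAC57 held 83.6, 90.4 and 91.5 CPM. CALS7 held 51.0, 91.3, 57.3 and 56.0 CPM, with CALS7 2 far above the other 3. NAC73 held 117, 151, 143 and 91.8 CPM, all above every library of the other 5 lines. No neighbours in the order of means differed past the threshold, the closest being NAC73 and NAC57 (log2 0.51 lower in NAC57, adjusted p = 0.0504). That difference was called with median-of-ratios scaling and DESeq2 (-0.81 each), with voom (-0.60), without NAC73 1 (-0.54) or NAC73 4 (-0.63), and with NAC73 2 and 3 only (-0.73).

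SUN2, at chr3:3358288-3360702 on the minus strand with 455 residues, encodes the partner protein of SUN1, and the pair is largely redundant in nuclear shape. Its levels were 14.4, 16.4, 13.9 and 17.0 CPM in PEAR1, 25.8 and 18.4 in PEAR1-DBOX, and 45.0, 32.7, 34.6 and 40.2 in CVP2-DBOX. NAC57 held 30.3, 36.01 and 37.5 CPM and CALS7 20.0, 15.3, 15.8 and 13.8. NAC73 held 12.2, 29.8, 28.3 and 39.9 CPM, a range that ran from below the lowest CALS7 library to the CVP2-DBOX level. No neighbours in the order of SUN2 means differed past the threshold, but NAC73 and PEAR1-DBOX were called without NAC73 1 (0.56).

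CRWN4 encodes the most distant member of the family and, with CRWN1, lines the nuclear periphery. Its counts summed to 19 over the 21 libraries, with at most 5 in a library and 0 in 11 of them, so it did not pass the filter and was not among the 6 genes tested. Tested without the filter it was called in none of 16 tests (lowest adjusted p = 0.107 in edgeR). The gene, at chr5:26311311-26316025 on the plus strand, lies wholly inside the annotated span of ATBCAT-5 (AT5G65780; chr5:26311311-26318857, same strand), and 466 of its exon bases (12.2%) are also exon bases of that gene. ATBCAT-5, a branched-chain aminotransferase gene, had 13989 counts. Among 49 protein-coding genes whose span lies inside another gene and which, like CRWN4, share under 50% of their exon bases, 16.3% had at most 20 counts over all libraries (median 276 counts). The share was 32.4% of 219 such genes with at least 50% shared and 7.8% of 20186 genes that overlap no other, with limits chosen after the CRWN4 count was seen. Every 50-base stretch of CRWN4 exons occurred once in the genome. The treatment of such overlaps in counting is not given in the sources used here. Its part was not tested, so the CRWN4 count is not read as a level.

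Per kilobase of exon, which allows levels of different genes to be compared, CRWN1 was the most abundant of the 6 genes in every line, at 32.3 to 101 CPM per kb. SUN1 came next in the PEAR1 line, at 27.0 ± 2.19 CPM per kb (SD, n = 4), followed by CRWN3 at 19.8 ± 2.55, KAKU4 at 9.72 ± 1.04, CRWN2 at 9.21 ± 1.15 and SUN2 at 8.49 ± 0.82. In CVP2-DBOX, CRWN1 stood at 66.17 ± 4.2 CPM per kb and CRWN2 at 23.96 ± 3.24. In CALS7 the distance was far wider, with CRWN1 at 95.9 ± 7.53 CPM per kb, CRWN2 at 3.45 ± 0.669 and KAKU4 at 3.57 ± 0.29.

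The regions just before the starts of 3 of these genes are shown because CRWN2 and KAKU4 followed each other across libraries (Pearson's r = 0.899 on the log2 scale over 21 libraries of 6 lines, a description with no test), while CRWN1 did not (r = -0.476 with CRWN2 and -0.604 with KAKU4). Each run is the 250 bases before the annotated gene start, 5′ to 3′ on the gene's strand, from RefSeq's TAIR10.1, and capitals mark AACGG on either strand. This is the core of the MSA element that MYB3R transcription factors bind in promoters of genes of G2 and M phase.
CRWN2, chr1:4515214-4515463, plus strand: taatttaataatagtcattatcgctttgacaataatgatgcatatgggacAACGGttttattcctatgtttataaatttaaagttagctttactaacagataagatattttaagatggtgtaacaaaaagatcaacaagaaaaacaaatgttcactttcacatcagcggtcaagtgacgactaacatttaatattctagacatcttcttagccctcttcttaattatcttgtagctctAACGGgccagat
KAKU4, chr4:15248127-15248376, plus strand: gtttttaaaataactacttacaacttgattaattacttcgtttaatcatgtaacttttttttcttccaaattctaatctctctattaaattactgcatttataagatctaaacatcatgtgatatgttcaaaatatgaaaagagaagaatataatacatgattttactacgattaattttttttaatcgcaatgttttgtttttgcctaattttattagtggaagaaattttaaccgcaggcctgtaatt
CRWN1, chr1:25156390-25156639, minus strand: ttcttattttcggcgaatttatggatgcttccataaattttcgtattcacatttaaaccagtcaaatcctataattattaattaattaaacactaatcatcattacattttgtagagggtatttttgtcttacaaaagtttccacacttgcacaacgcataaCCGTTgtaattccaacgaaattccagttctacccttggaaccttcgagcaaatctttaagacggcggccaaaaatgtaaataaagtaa

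CRWN2 held AACGG with its first base 200 and 12 bases before the start, and CRWN1 held it once, on the opposite strand, 88 bases before. The window searched ran from 250 bases before to 50 after the start, on both strands, and 2 of the 7 genes held the motif, as did 24.7% of 27443 promoters. KAKU4 held none in its window. The E2F motifs TTTCCCGC and TTTGGCGC, which do not overlap with AACGG, were in 0 of the 7 windows and in 0.8% and 0.4% of all promoters. A match describes letters only, and no match says nothing of the factor.

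CVP2-DBOX against PEAR1 sets a young phloem promoter with a destruction box beside another without it (n = 4 each). Most of the 6 genes tested were higher in the CVP2-DBOX line. CRWN2 rose 2.60-fold (log2 1.38 ± 0.26, SE), SUN2 2.48-fold (1.31 ± 0.26) and KAKU4 2.22-fold (1.15 ± 0.30). CRWN3 rose 1.77-fold (0.82 ± 0.20) and CRWN1 1.50-fold (0.59 ± 0.15). SUN1 did not pass, at log2 0.40 ± 0.18 (adjusted p = 0.119). So 5 of 6 genes tested rose, with adjusted p from 0.000573 to 0.00747, where 27.4% of all genes were called and 12.2% were higher. The median log2 change was 0.99 over the 6 genes and -0.20 over all genes. The summed dividing-cell markers moved the same way, with medians of 302 and 2850 CPM. Of the companion cell markers, SUC2 was at 29.2 ± 2.59 CPM in PEAR1 and 0.835 ± 0.795 in CVP2-DBOX, and FTIP1 at 7.66 ± 1.01 and 0.846 ± 0.728. PP2-A1 was at 1.73 ± 0.504 and 0.179 ± 0.312 CPM, while AHA3, the most abundant, was close in both lines (122 ± 20.4 and 105 ± 14.2). The part of either marker group was not tested. SUN1 was called with voom (0.42) and with only these 2 lines fitted (0.34).

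PEAR1-DBOX against PEAR1 holds the promoter constant and adds the destruction box (n = 2 and n = 4). None of the 6 genes passed edgeR's test, where 2.29% of all genes did (1.4% higher, 0.886% lower), and at an unadjusted p under 0.05 there were 2, CRWN1 (log2 -0.45 ± 0.18, adjusted p = 0.235) and KAKU4 (0.75 ± 0.35, adjusted p = 0.305). The libraries of the 2 lines did not overlap for CRWN1, KAKU4 and also SUN2. The shares of all genes without overlap, or at an unadjusted p under 0.05, were not computed, so these counts are not read as differences. DESeq2 and voom also called 0 of the 6. CRWN2 and SUN2 stood at log2 0.52 ± 0.30 each. For CRWN2, CRWN3, SUN2 and KAKU4 the higher of the 2 PEAR1-DBOX libraries was PEAR1-DBOX 3. CRWN1 and SUN1 went the other way, at 129.7 and 40.0 CPM in PEAR1-DBOX 3 and 135.7 and 47.8 in PEAR1-DBOX 5. Dividing-cell markers summed to 2680 CPM in PEAR1-DBOX 3 and 1390 in PEAR1-DBOX 5, and their part was not tested. In all, 366 genes were higher and 231 lower, or 206 and 244 with median-of-ratios scaling, which moved the median of all genes by -0.12.

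CALS7 against CVP2-DBOX asks what differs between cells of a sieve element differentiation promoter and those of a young phloem promoter (n = 4 each). CRWN2 fell 6.95-fold (log2 -2.80 ± 0.27) and KAKU4 6.05-fold (-2.60 ± 0.31). SUN2 fell 2.35-fold (-1.23 ± 0.26) and CRWN3 2.12-fold (-1.08 ± 0.20), while CRWN1 rose 1.45-fold (0.54 ± 0.15, adjusted p = 0.00666). SUN1 did not pass, at log2 -0.07 ± 0.18 (adjusted p = 0.796), and its sign turned with median-of-ratios scaling (0.15). Thus 4 of 6 genes were lower and 1 was higher, where 40.6% of all genes were called, 23.7% lower and 16.9% higher. The median log2 change was -1.16 over the 6 genes against 0.11 over all genes, and median-of-ratios scaling moved the latter up by 0.24. All 5 calls held without any 1 library. Summed dividing-cell markers fell alongside, from 2460 to 3420 CPM in CVP2-DBOX to 40.6 to 72.3 in CALS7, and AHA3 was higher, while SUC2 stayed near 1 CPM in both lines. Their part was not tested.

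In CALS7 against PEAR1 (n = 4 each), CRWN1 moved opposite to CRWN2 and KAKU4. CRWN1 rose 2.18-fold (log2 1.12 ± 0.15, adjusted p = 1.25e-05), and CRWN2 fell 2.67-fold (-1.42 ± 0.26) and KAKU4 2.73-fold (-1.45 ± 0.30). CRWN3 (-0.26 ± 0.20), SUN1 (0.32 ± 0.18) and SUN2 (0.08 ± 0.25) did not pass. These 3 calls of 6 stand beside 37.9% of all genes called, and each held without any 1 library. The CALS7 libraries serve in both comparisons, and the 2 sets of values are therefore not independent. SUN1 was called when only these 2 lines were fitted (0.58).

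**Figure D2:**
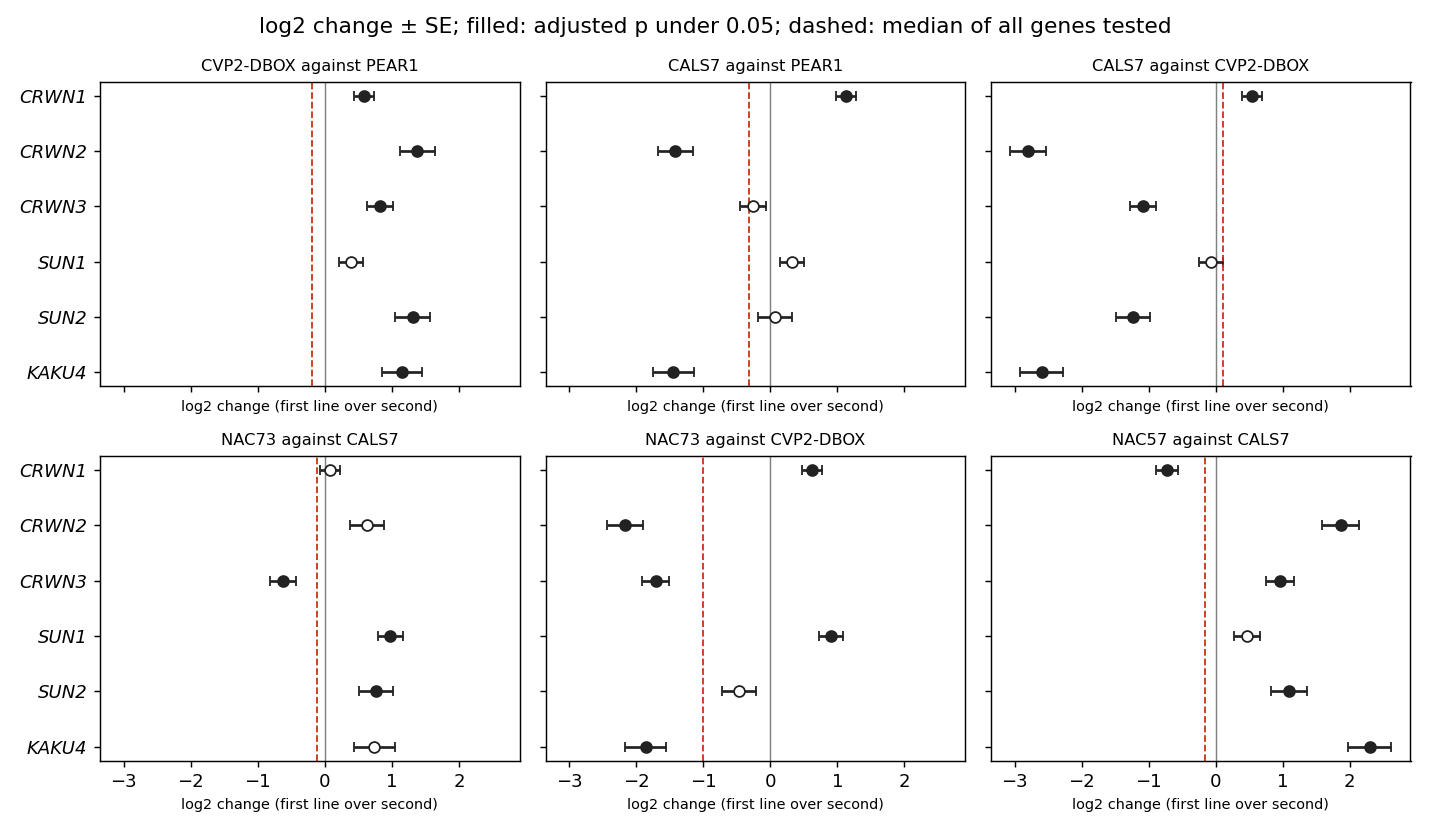
log2 change of 6 genes (horizontal axis, first line over second, bars of 1 SE) in 6 comparisons of lines, with filled points for adjusted p under 0.05, a grey line at 0 and a dashed line at the median of all genes tested. CRWN2 and KAKU4 lie at -2.80 and -2.60 in CALS7 against CVP2-DBOX, where CRWN1 lies at 0.54.

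NAC73 against CALS7 compares 2 lines with the same kind of nuclear reporter (n = 4 each). SUN1 rose 1.97-fold (log2 0.98 ± 0.18, adjusted p = 0.000753) and SUN2 1.69-fold (0.76 ± 0.25, adjusted p = 0.0279), and CRWN3 fell 1.54-fold (-0.62 ± 0.20, adjusted p = 0.0215). CRWN1 stood at log2 0.08 ± 0.15, with a sign that turned under median-of-ratios scaling (-0.05) and without NAC73 2 (-0.02). CRWN2 (0.63 ± 0.26, adjusted p = 0.062) and KAKU4 (0.74 ± 0.30, adjusted p = 0.0617) did not pass. So 3 of 6 genes were called, where 35.9% of all genes were, 15.6% higher and 20.3% lower.

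The SUN1 rise held without any 1 library (0.88 to 1.20) but not with only these 2 lines fitted (0.63, adjusted p = 0.11). Its size depends on the TMM scaling, since SUN1 counts as shares of unscaled library totals overlapped between the lines. The SUN2 call ended without CALS7 2 (0.73), CALS7 3 (0.75), CALS7 4 (0.69), NAC73 2 (0.72) or NAC73 4 (0.53), and with median-of-ratios scaling (0.62), DESeq2 (0.62) or only these 2 lines fitted (0.37). The CRWN3 call ended without CALS7 2 (-0.55), CALS7 3 (-0.58), NAC73 1 (-0.47) or NAC73 3 (-0.56), and with voom (-0.57). CRWN2 was called without NAC73 1 (0.72) or NAC73 3 (0.81), and KAKU4 without NAC73 2 (1.03). With NAC73 1 and 4 only, the pair nearer to CALS7 on the first principal component, KAKU4 was called at 1.24 and CRWN2 at 0.86 but SUN2 (0.68) and CRWN3 (-0.60) were not. With NAC73 2 and 3 only, KAKU4 stood at -0.02. Summed sieve element markers were 39300 and 32800 CPM in NAC73 2 and 3 and 17400 and 27100 in NAC73 1 and 4, and their part in these differences was not tested.

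NAC73 against CVP2-DBOX sets the NAC073 promoter beside that of CVP2 (n = 4 each). CRWN2 fell 4.49-fold (log2 -2.17 ± 0.26), KAKU4 3.62-fold (-1.86 ± 0.31) and CRWN3 3.26-fold (-1.71 ± 0.20). SUN1 rose 1.87-fold (0.90 ± 0.18) and CRWN1 1.53-fold (0.62 ± 0.15). Both rises depend on the TMM scaling. NAC73 libraries held 5370 to 7210 CRWN1 counts in totals of 23513921 to 32260798. CVP2-DBOX libraries held 9309 to 11429 in totals of 33810116 to 36198012. As shares of these totals, counts of both genes overlapped between the lines, and CRWN1 was not higher in NAC73. SUN2 did not pass at log2 -0.47 ± 0.25, but it was called without NAC73 4 (-0.70). The count of 5 of 6 stands beside 56.6% of all genes called (20.4% higher, 36.2% lower), and the median of all genes was -1.01, close to the -1.09 of the 6 genes.

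NAC57 against CALS7 places the line labelled NAC57 (n = 3) beside CALS7 (n = 4). KAKU4 rose 4.92-fold (log2 2.30 ± 0.32), CRWN2 3.64-fold (1.86 ± 0.28), SUN2 2.13-fold (1.09 ± 0.27) and CRWN3 1.95-fold (0.96 ± 0.21), and CRWN1 fell 1.65-fold (-0.72 ± 0.16). SUN1 did not pass, at log2 0.47 ± 0.19 (adjusted p = 0.0515), and was called without CALS7 2 (0.69) and with voom (0.60). The count of 5 of 6 stands beside 49.7% of all genes called, 24.1% higher and 25.5% lower. In this comparison 6295 genes were higher and 6655 lower, or 4240 and 8554 with median-of-ratios scaling, which moved the median of all genes by -0.41. Under that scaling SUN2 stood at 0.67 and was not called, and the other 4 calls held. Against CVP2-DBOX, CRWN2 alone passed, lower by 1.91-fold in NAC57 (log2 -0.93 ± 0.28, adjusted p = 0.0266), and the other 5 lay between -0.30 and 0.40. This count of 1 stands beside 19.5% of all genes called (10.9% higher, 8.54% lower), with 2851 higher and 2227 lower, or 1860 and 2732 with median-of-ratios scaling, which moved the median by -0.18. The CRWN2 call ended without CVP2-DBOX 1 (-0.86), CVP2-DBOX 2 (-0.86), CVP2-DBOX 3 (-0.93), NAC57 2 (-0.76) or NAC57 4 (-0.92).

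Ratios of related genes within a library do not depend on how libraries are scaled, apart from the pseudocount of 1 CPM. The log2 ratio of CRWN2 to CRWN3 was -1.03 ± 0.13 in PEAR1, -0.49 ± 0.21 in CVP2-DBOX, -2.14 ± 0.41 in CALS7 and -0.96 ± 0.36 in NAC73 (SD, n = 4 each). It was thus higher by 0.53 in CVP2-DBOX than in PEAR1, lower by 1.64 in CALS7 than in CVP2-DBOX and higher by 1.18 in NAC73 than in CALS7. In an exact 2-sided permutation test each difference had p = 0.0286, the smallest that 4 against 4 libraries allow, and an adjusted p of 0.0367 over 9 tests. In each of these 3 comparisons no library of either line lay within the range of the other.

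The log2 ratio of SUN1 to SUN2 was 1.67 ± 0.07 in PEAR1, 0.80 ± 0.13 in CVP2-DBOX, 1.89 ± 0.49 in CALS7 and 2.24 ± 0.81 in NAC73 (SD, n = 4 each). CVP2-DBOX was lower than PEAR1 by 0.87 and than CALS7 by 1.08, both with an adjusted p of 0.0367 in the exact permutation test. NAC73 and CALS7 differed by 0.35, within the spread of libraries (exact permutation p = 0.486). Within NAC73 the ratio ran from 1.18 to 3.17.

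The ratio of CRWN1 to CRWN2, examined after the values were seen, was 2.25 ± 0.09 in PEAR1, 1.49 ± 0.18 in CVP2-DBOX, 4.74 ± 0.20 in CALS7 and 4.25 ± 0.50 in NAC73 on the log2 scale (SD, n = 4 each). It was higher by 3.25 in CALS7 than in CVP2-DBOX and lower by 0.77 in CVP2-DBOX than in PEAR1, each with an adjusted p of 0.0381 over 12 tests in the exact permutation test. These p-values add no support, as the pair was chosen from the same values. In CALS7 against CVP2-DBOX the outcome was fixed, since libraries overlapped for neither gene and the genes moved opposite ways. NAC73 differed from CALS7 by -0.48 (exact permutation p = 0.143). The planned ratio of CRWN1 to CRWN4 had a denominator near 0 counts and tracked CRWN1 alone, with differences of 0.55, 0.56 and 0.09 in the same 3 comparisons.

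**Figure D3:**
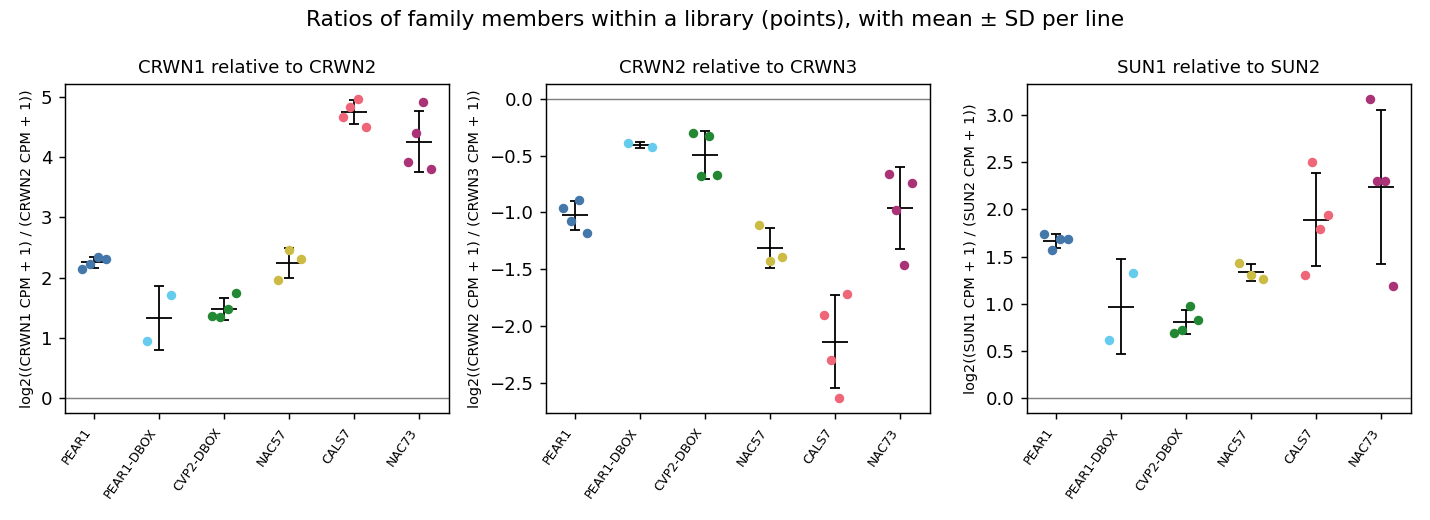
log2 ratio of 2 related genes within each library (vertical axis, 1 CPM added to each level) in 6 reporter lines (horizontal axis), with points for libraries and bars for mean and SD. CRWN1 to CRWN2 lies near 4.74 in CALS7 and 1.49 in CVP2-DBOX, and CRWN2 to CRWN3 is lowest in CALS7.

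Across the 21 libraries the 15 pairs among the 6 genes had Pearson's r from -0.604 (CRWN1 and KAKU4) to 0.899 (CRWN2 and KAKU4) on log2 levels, which describe points that share lines and libraries. CRWN3 went with CRWN2 at 0.787 and with KAKU4 at 0.733, and CRWN1 with SUN1 at 0.634, while SUN1 and SUN2 stood at 0.337. Likeness was compared only with the 4200 genes that had a symbol in the reference and a mean of at least 20 CPM. Of these, the most like KAKU4 were UVI4-LIKE (r = 0.975), an inhibitor of the anaphase-promoting complex, OXA1L and PEX3. Most like CRWN2 was the locus AT5G48600 (0.973), which the reference calls SMC3, a chromosome structure gene. Next were the locus AT3G03600 (0.958), which the reference calls RPS2, and PLE (0.958), a microtubule-bundling gene of cytokinesis. CRWN1 was most like RPT2b (0.965), a proteasome subunit gene, Phox3 (0.961) and CTR1 (0.958), a kinase of ethylene signalling. SUN1 went with SYP71 (0.948), a syntaxin gene, ATERDJ3B (0.931) and CAM3 (0.923). CRWN3 went with SARK (0.945), TTG1 (0.942) and PRAF1 (0.934), and SUN2 with AUG3 (0.914), a gene of the augmin complex, FAD6 (0.903) and VOZ2 (0.888).

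The other genes of the envelope were read from a list of 23, among them KASH proteins, their partners and further SUN genes. In CALS7 against CVP2-DBOX, 12 fell, 2 rose and 9 did not pass, with a median log2 change of -1.20 against 0.11 over all genes, of which 23.7% were called lower and 16.9% higher. Median-of-ratios scaling gave 10 lower and 4 higher. RANGAP1, which activates the GTPase Ran and docks at the envelope, fell from 559.6 ± 48.1 to 96.97 ± 5.21 CPM (log2 -2.53 ± 0.17). WPP1, a small envelope protein, fell from 75.99 ± 8.23 to 4.53 ± 1.12 CPM (-4.07 ± 0.30). XI-I, the myosin that moves nuclei through the LINC complex, fell from 104 ± 6.93 to 23.2 ± 2.83 CPM (-2.17 ± 0.23). CPR5, a membrane protein of the nuclear pore, rose from 18.2 ± 1.43 to 71.7 ± 11.8 CPM (1.97 ± 0.18), as CRWN1 did.

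In CVP2-DBOX against PEAR1, 9 of those 23 rose and 3 fell (median 0.45, all genes -0.20), beside 12.2% and 15.2% of all genes, with RANGAP1 at 1.95 ± 0.16, WPP1 at 1.91 ± 0.28 and XI-I at 1.76 ± 0.22, and the KASH gene WIP3 lower at -0.75 ± 0.17. CALS7 against PEAR1 had 2 higher and 12 lower (median -1.29, all genes -0.32), beside 14.7% and 23.1% of all genes, led by CPR5 (1.88 ± 0.17), WPP1 (-2.16 ± 0.28) and GIP1 (-1.89 ± 0.31), a gene of microtubule nucleation at the envelope. With PEAR1 1 and 3 only these were 2 higher and 6 lower. NAC57 against CALS7 had 14 higher and 1 lower (median 1.40, all genes -0.16), beside 24.1% and 25.5% of all genes, with GIP1 at 3.16 ± 0.34 and CPR5 at -1.74 ± 0.19. These counts were 9 and 2 with median-of-ratios scaling and 10 and 2 with DESeq2. NAC73 against CVP2-DBOX had 5 higher and 11 lower (median -1.75, all genes -1.01), beside 20.4% and 36.2% of all genes, with CPR5 at 3.30 ± 0.18. In PEAR1-DBOX against PEAR1, 4 rose and 2 fell, among them SUN3 (-1.45 ± 0.26) and WPP1 (1.32 ± 0.32), beside 2.29% of all genes called. With median-of-ratios scaling 0 rose and 2 fell, so that the call of WPP1 was lost. No gene of the list was called without PEAR1-DBOX 3, and there was 1 call without PEAR1 2 or PEAR1 3, and 2 without PEAR1 4. NAC57 against CVP2-DBOX had 1 higher, WIP3 (1.15 ± 0.19), and 4 lower, a count of 5 of 23 near the 19.5% of all genes called. It was 14 with voom, 13 with only these 2 lines fitted, and 3 without any 1 of CVP2-DBOX 1, 2 or 3 or of the 3 NAC57 libraries.

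Nuclear pore genes, of which 23 of 29 listed were kept, encode the parts of the channels through the nuclear envelope. In CALS7 against CVP2-DBOX 22 of 23 fell (median -2.25, all genes 0.11), where 23.7% of all genes fell, including NUP160 (-3.43 ± 0.41) and NUP96 (-1.63 ± 0.23) of the pore scaffold, NUP155 (-2.88 ± 0.49) and the mRNA export gene RAE1 (-2.25 ± 0.29). In CVP2-DBOX against PEAR1, 11 rose and 12 did not pass (median 1.17), where 12.2% of all genes rose, with NUP160 at 1.54 ± 0.38. In CALS7 against PEAR1, 15 fell and 1 rose (median -1.16), where 23.1% and 14.7% of all genes did, or 6 and 1 with PEAR1 1 and 3 only, and in NAC57 against CALS7, 19 rose and 0 fell (median 1.89), where 24.1% and 25.5% of all genes did, or 17 and 2 with median-of-ratios scaling or DESeq2. NAC73 against CVP2-DBOX had 22 lower (median -2.17, all genes -1.01), where 36.2% of all genes were. NAC57 against CVP2-DBOX had 2 of 23 lower, near the 8.54% of all genes that were. These were the nuclear basket genes NUP1 (-0.89 ± 0.26) and NUA (-0.83 ± 0.28). This count of 2 was 0 without CVP2-DBOX 2, CVP2-DBOX 3, NAC57 2 or NAC57 4 and 1 without CVP2-DBOX 1 or CVP2-DBOX 4, but 5 with median-of-ratios scaling, 8 with DESeq2, 16 with voom and 19 with only these 2 lines fitted, all of them lower in NAC57. In PEAR1-DBOX against PEAR1 edgeR called 0 pore genes (median 0.71), where 2.29% of all genes were called, and DESeq2 called 0 and voom 3. There were 5 at an unadjusted p under 0.05 in edgeR, but the share of all genes there was not computed, so this count is not read as a trend.

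In NAC73 against CALS7 the count of these lists turned on which NAC73 libraries were used. With all 4, 4 envelope genes rose, CPR5 (1.32 ± 0.17), WIP2 (1.26 ± 0.23), WIP1 (1.27 ± 0.34) and WPP2 (0.60 ± 0.17), and SUN4, named outside the rule for named genes, fell (-2.67 ± 0.78), while 2 pore genes rose, among them NUP160 (1.10 ± 0.38). These 5 of 23 and 2 of 23 genes called stand beside 35.9% of all genes. With NAC73 1 and 4 only, 17 pore genes were higher and 0 lower in NAC73. With NAC73 2 and 3 only, 0 were higher and 15 lower. The envelope list had 10 higher and 1 lower in the former and 5 higher and 7 lower in the latter. The envelope count of 5 was 8 without CALS7 2, and the pore count of 2 was 5 without NAC73 3 and 1 without CALS7 1, CALS7 3 or CALS7 4.

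**Figure D4:**
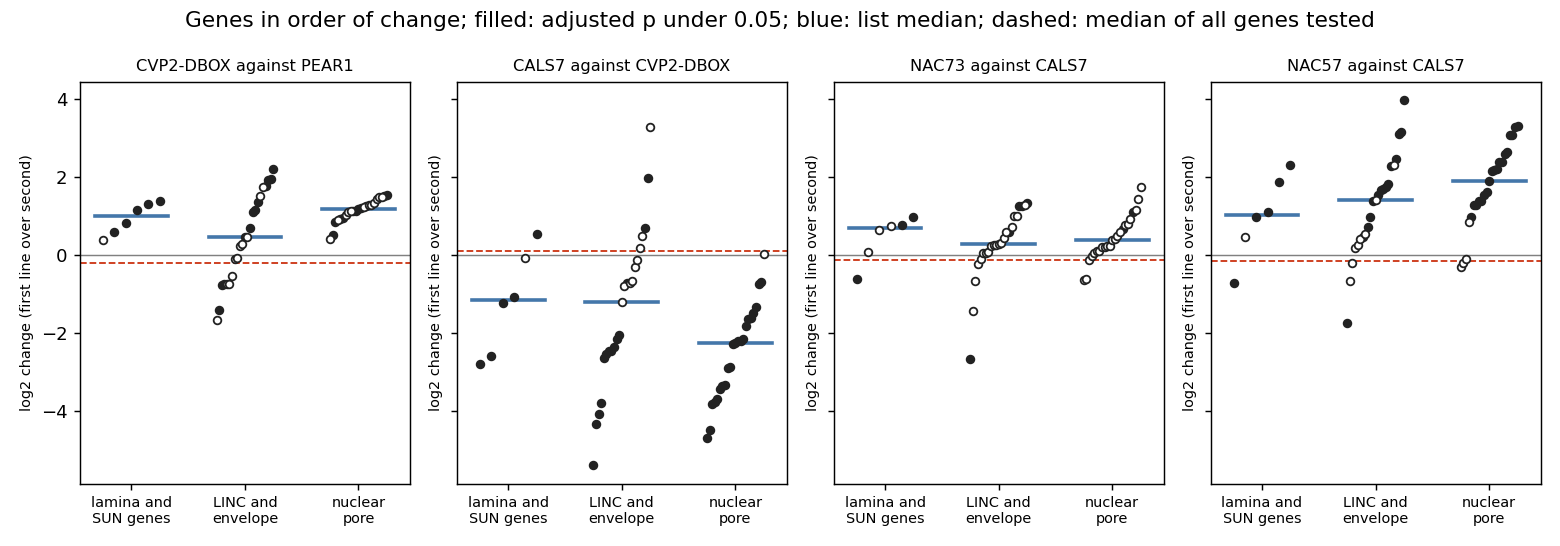
log2 change (vertical axis, first line over second) of the 6 lamina and SUN genes tested, 23 other envelope genes and 23 nuclear pore genes in 4 comparisons, in order of change within each list, with filled points for adjusted p under 0.05, a blue bar at the list's median and a dashed line at the median of all genes tested. In CALS7 against CVP2-DBOX the pore genes lie lowest, with a median of -2.25, and CRWN1 and CPR5 lie above 0.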

How the data were processed

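Counts per gene were deposited as the authors made them, 1 raw read count per locus code and library with no normalization. The TAIR10 build, Bowtie2, featureCounts and edgeR are named per the submitters' processing notes. Versions, strand setting and treatment of shared reads: not given in the sources used here. Low-input cDNA was amplified by PCR, per the labels' protocols, and no molecular identifiers are named there.

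Genes were tested with edgeR 4.0.16 under R 4.3.3, with the 21 libraries in a single fit that gave each line its own coefficient. It used TMM factors, kept 26074 genes through filterByExpr, and ran robust quasi-likelihood F tests and Benjamini-Hochberg adjustment over all genes tested at 0.05. The model was tested on simulated data. CPM are TMM-scaled, SDs are between libraries, and SEs come from the model. Of 33602 locus codes, 32835 were found in RefSeq's TAIR10.1 annotation, which gave symbols, coordinates, exon lengths and sequences. The files' build is TAIR10, so coordinates are those of the annotation matched by locus code. List members whose locus carries another symbol were dropped (6 pore genes), and 6 envelope and 15 pore genes kept have no symbol there and are counted but not named.

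The members, the lists and the tests were chosen with earlier results of these data known. Wider-list genes named are those called that have a symbol and the smallest adjusted p, up to 4 per list and comparison, and like genes are the 3 named genes, with a mean of at least 20 CPM, of highest r on log2(CPM + 1). The settings varied were scaling (median-of-ratios factors), the filter, the tool (DESeq2 1.42.0, limma 3.58.1 voom with sample weights), a block for the replicate number, a fit of the 2 lines alone, each library left out, subsets of NAC73 and PEAR1 libraries, and pseudocounts of 5 and 0.1 CPM for ratios. A PEAR1-DBOX library left alone was assumed to vary like the other lines. Replicate libraries differed by far more than sampling noise, and none was left out of the main comparisons. Figures were drawn with matplotlib 3.10.9.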

Additional observations from a re-analysis of the deposited data

Results flagged for a closer look

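SUN1 in CALS7 2 stood at 91.3 CPM, while the other 3 CALS7 libraries lay between 51.0 and 57.3 CPM. The gap to the nearest library took 0.844 of the line's whole range, above Dixon's 95% critical value of 0.829 for 4 values. In all, 24 groups of 4 libraries were scanned, and chance flags about 1 in 20. Without CALS7 2, SUN1 was called higher in NAC57 than in CALS7 (log2 0.69), and in NAC73 against CALS7 its change was 1.20 in place of 0.98.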

How the results depend on the processing

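Differences among the 6 lines were called for all 6 genes tested under each alternative run. Median-of-ratios size factors and DESeq2 turned values near 0: SUN1 in CALS7 against CVP2-DBOX (0.15 with each), CRWN1 in NAC73 against CALS7 (-0.048 and -0.049, -0.30 with only these lines fitted and -0.056 with NAC73 1 and 4 only), CRWN3 in CALS7 against PEAR1-DBOX (0.081 with each, 0.064 with only these lines) and KAKU4 in NAC57 against PEAR1-DBOX (-0.10 with each). With NAC73 2 and 3 only, KAKU4 in NAC73 against CALS7 was -0.025. Correlations of same-numbered deviations from line means ran from -0.18 to 0.103. Libraries of unlike number were not compared, so these values cannot settle whether replicate numbers pair the samples. With the replicate block, CRWN3 in PEAR1-DBOX against PEAR1 was 0.29, KAKU4 was -0.028 in CVP2-DBOX and -0.39 in NAC57 against PEAR1-DBOX, and SUN2 in NAC73 against CALS7 was not called (0.72).

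With 1 library left out, ranges that crossed 0 were -0.015 to 0.24 for CRWN1 in NAC73 against CALS7, -0.30 to 0.053 for SUN1 in CALS7 against CVP2-DBOX, -0.041 to 0.15 for SUN2 in CALS7 against PEAR1, -0.21 to 0.016 for CRWN3 in NAC57 against CVP2-DBOX and -0.48 to 0.18 for CRWN3 in PEAR1-DBOX against PEAR1. Against PEAR1-DBOX they were -0.45 to 0.21 for CRWN3 in CALS7, -0.38 to 0.32 for CRWN2 in NAC57 and -0.19 to 0.47 for KAKU4 in NAC57. The CRWN1 to CRWN4 ratio in NAC73 against CALS7 ran from -0.0096 to 0.27. Ratios kept their other directions, but 4 against 3 libraries, or 4 pairs, cannot reach p = 0.05 in an exact test, so their tests without a library or with the block say nothing of stability.

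Counts of all genes called in PEAR1-DBOX against PEAR1 were 597 in the main fit, 1900 with DESeq2, 1471 with voom, 1161 with the block, 2419 with only the 2 lines, 26 with PEAR1 1 and 3 only, and 30 to 1543 with 1 library left out. CVP2-DBOX against PEAR1 gave 15221 with voom and 12594 with only the 2 lines. NAC57 against CVP2-DBOX gave 12268 and 9334, and 2698 to 4486 with 1 library left out, with 2 lamina or SUN genes called in each of the former fits (SUN1 added) and 0 to 1 in the latter. With only the 2 lines, NAC73 against CALS7 gave 2257 genes and 1 of the 6, and NAC73 against CVP2-DBOX gave 9277 genes. NAC73 against CALS7 called 1 to 3 of the 6 with 1 library left out.

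Envelope genes called in PEAR1-DBOX against PEAR1 were 2 with median-of-ratios factors, 3 with no filter, 0 with PEAR1 1 and 3 only and 0 to 7 with 1 library left out. In NAC57 against CVP2-DBOX they were 14 with voom, 13 with only the 2 lines and 3 to 4 with 1 library left out. In NAC73 against CALS7 they were 1 with only the 2 lines, 11 with NAC73 1 and 4 only, 12 with NAC73 2 and 3 only and 5 to 8 with 1 library left out. In CALS7 against PEAR1 they were 8 with PEAR1 1 and 3 only. Pore genes called in NAC57 against CVP2-DBOX were 5 with median-of-ratios factors, 1 with no filter, 8 with DESeq2, 16 with voom, 19 with only the 2 lines and 0 to 2 with 1 library left out. In CVP2-DBOX against PEAR1 they were 23 with voom and 22 with only the 2 lines. In PEAR1-DBOX against PEAR1 they were 3 with voom, 1 with the block and 5 with only the 2 lines. In NAC73 against CALS7 they were 1 with the block, 1 with only the 2 lines, 17 with NAC73 1 and 4 only, 15 with NAC73 2 and 3 only and 1 to 5 with 1 library left out. In CALS7 against PEAR1 they were 7 with PEAR1 1 and 3 only. The cause of these shifts was not tested. The alternatives for the wider lists, and those for pairs of lines beyond the 8 described, were chosen after the data were seen. The 6 genes tested had 61 to 13705 counts per library and CRWN4 at most 5, and the part of depth was not tested.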
